A study of Mus musculus with 12 samples.

Results

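Glycogen metabolism was followed through 7 genes of 18194 on the array: Ppp1r3c, Gys1, Gbe1, Ugp2, Pygl, Pygb and Phka1. Each was read from probe sets whose only gene symbol is that gene, 15 probe sets in all, and the probe set with the highest mean over the 12 arrays stood for the gene. Ppp1r3c was chosen because it fell in intact corneas lacking Dscr1. All 8 intact arrays entered that choice, so its values in every comparison that uses them are descriptions with no test. The other 6 genes are named for their roles in the pathway, and they were chosen with earlier results of these data known.

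The study measured RNA of whole mouse corneas, 1 Affymetrix array per sample, all on the C57BL/6J strain. The 8 intact samples are 4 genotypes of 2 samples each, labelled biological replicates: wild type (WT), ApoE-/- (ApoeKO), Dscr-1-/- (Dscr1KO) and the double null mutant (double KO). The 4 sutured samples are single arrays: WT and Dscr1KO on day 5 after suturing, and WT and Dscr-1 Tg, the transgenic genotype, on day 7. Rcan1 is the current symbol of Dscr1, and its protein binds and regulates calcineurin, a calcium-dependent phosphatase. Apolipoprotein E, the product of Apoe, carries cholesterol. The sources used here do not state the promoter that drives the transgene, the age of the animals or any pooling of corneas.

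Glycogen is the branched glucose store of animal cells, and the corneal epithelium holds such a store. Ugp2 makes UDP-glucose, Gys1 (glycogen synthase) adds the glucose to a chain, and Gbe1 (the branching enzyme) adds branch points. Pygl and Pygb are phosphorylases, which release glucose phosphate from the chains, and Phka1 is a regulatory subunit of the kinase that switches phosphorylases on. The protein of Ppp1r3c, also called PTG, holds protein phosphatase 1 on the granule, where the phosphatase favours synthesis over breakdown.

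The promoters of Ppp1r3c, Pygl and Gbe1 are shown because these 3 genes had the lowest log2 differences of the 7 between corneas without and with Dscr1. Each sequence is the 250 bases before the RefSeq start (GRCm38.p6), printed 5′ to 3′ on the strand of the gene. Capitals mark ACGTG, the core of the hypoxia response element, on either strand. The Ppp1r3c window is chr19:36736605-36736854 on the minus strand, that of Pygl chr12:70227684-70227933 on the minus strand and that of Gbe1 chr16:70313699-70313948 on the plus strand.
Ppp1r3c: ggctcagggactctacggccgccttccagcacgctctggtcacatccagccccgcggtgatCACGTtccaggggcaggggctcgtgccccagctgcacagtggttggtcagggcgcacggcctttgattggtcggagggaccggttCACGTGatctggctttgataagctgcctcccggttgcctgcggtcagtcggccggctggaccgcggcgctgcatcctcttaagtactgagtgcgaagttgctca
Pygl: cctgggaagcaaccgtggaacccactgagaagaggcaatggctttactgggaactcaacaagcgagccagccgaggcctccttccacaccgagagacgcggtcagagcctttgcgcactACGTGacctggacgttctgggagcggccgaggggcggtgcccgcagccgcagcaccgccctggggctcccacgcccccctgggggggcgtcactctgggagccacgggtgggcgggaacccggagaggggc
Gbe1: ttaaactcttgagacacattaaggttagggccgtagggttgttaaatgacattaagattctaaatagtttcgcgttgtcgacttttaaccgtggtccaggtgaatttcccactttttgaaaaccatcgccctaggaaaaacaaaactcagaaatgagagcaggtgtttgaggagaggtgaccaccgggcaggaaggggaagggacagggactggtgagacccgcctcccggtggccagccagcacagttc

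The Ppp1r3c window holds 3 matches to ACGTG, of which the pair that begins 104 and 103 bases before the start is 1 palindrome, CACGTG, counted once on each strand. Pygl, Pygb and Ugp2 hold 1 match each, while the windows of Gbe1, Gys1 and Phka1 hold no such letters. The 7 genes have 8 windows, since Ugp2 has a second one, which holds no ACGTG. A gene was counted if any of its windows held the motif, while the share over all promoters is by window. ACGTG was thus present in 4 of 7 genes, against 16.6% of 32851 promoter windows of the same length. CACGTG, the E-box, which always contains ACGTG, was present in 1 of 7 genes and 6.02% of all windows. GGAAA, the core of sites bound by NFAT factors, the calcineurin targets, was found in Gbe1, Gys1 and Pygb, 3 of 7 genes, against 55.6% of all windows. TGACGTCA, the cAMP response element, was in none of the 7 genes and in 1.55% of all windows. Both strands were searched for every motif, and a match describes letters only.

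Before the results, 4 facts of the libraries bear on them. The library labelled ApoeKO replicate 1 read Apoe at 849.3 intensity units against 7.5 in replicate 2, and the library labelled Dscr1KO replicate 2 carries ApoE-/- in its source label and read Apoe at 316.8 against 1272.0 in replicate 1, so the main values are also given without both. Rcan1 read 581.3 to 668.2 on intact arrays with Dscr1 and 331.7 to 477.5 on those without. The sources used here do not place its probe set inside or outside the deletion, and the remaining signal therefore checks nothing. Xist, a transcript made from the inactive X chromosome, lay at 4104.0 to 5385.2 in both ApoeKO, both Dscr1KO and 1 double KO library (replicate 1), and at most 19.6 in the other 7. The corneal genes Krt12 and Kera were present on every array. Kera read 3451.6 to 4992.8 on intact arrays with Dscr1 and 441.3 to 1677.0 on those without, so it moved with the genotype. Array medians lay between 15.6 and 21.1. Replicates differed at least 2-fold in 215 genes in WT, 381 in ApoeKO, 1648 in Dscr1KO and 1147 in double KO, so the Dscr1-null groups are the less even ones. Precision is limited by the number of arrays, which is 2 in each intact genotype. In whole corneas, fewer cells of a type and less RNA per cell cannot be told apart.

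Ppp1r3c, the glycogen-targeting subunit of protein phosphatase 1, had its highest levels in intact corneas that carry Dscr1 and its lowest in double KO corneas. It read 4731.1 and 3780.1 in WT and 4045.1 and 4312.9 in ApoeKO. Dscr1KO read 2327.5 and 183.0, and double KO read 139.1 and 213.7. All 4 Dscr1-null intact corneas lay below all 4 others, but Dscr1KO replicate 1 lay far above the other 3. Sutured corneas read 1130.4 in WT and 2020.5 in Dscr1KO on day 5, and 1491.5 in WT and 930.0 in Tg on day 7. The sutured WT corneas thus lay below the intact WT corneas, while the sutured Dscr1KO cornea lay between the intact Dscr1KO replicates. By group mean the order was WT (4256 ± 672.5, SD, n = 2), ApoeKO (4179 ± 189.4, n = 2), the sutured Dscr1KO array, sutured WT on day 7, Dscr1KO (1255 ± 1516, n = 2), sutured WT on day 5, sutured Tg, and double KO (176.4 ± 52.75, n = 2). WT and ApoeKO, next to each other in that order, differed by less than the SD of WT. The SD of intact Dscr1KO exceeds its own mean, so its place among the sutured arrays is not fixed. Other neighbours are single arrays without a spread.

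On the scale of log2(intensity + 3.6), Ppp1r3c differed by -2.68 ± 0.95 (SE) between Dscr1KO and WT, by -4.57 ± 0.95 between double KO and ApoeKO and by -4.59 ± 0.95 between double KO and WT. The average of Dscr1 loss over both Apoe labels was -3.63 ± 0.67. The difference between Dscr1KO and WT rests on Dscr1KO replicate 2, the library of conflicting labels: without it the difference was -0.86, and without replicate 1 it was -4.50. The average ranged from -2.71 to -4.54 as single arrays were left out. A dimmer Ppp1r3c probe set had the same order of groups among intact corneas, at 73.6 and 70.5 in WT and at 43.9 and 53.0 in ApoeKO. It read 13.9 and 0.6 in Dscr1KO, while double KO read 1.1 and 0.7. On sutured arrays this dimmer probe set read 19.6 in WT and 25.1 in Dscr1KO on day 5. On day 7 it read 19.6 in WT and 26.8 in Tg. Unlike on the brighter probe set, sutured Dscr1KO lay above both intact Dscr1KO replicates, and Tg lay above WT.

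**Figure D1:**
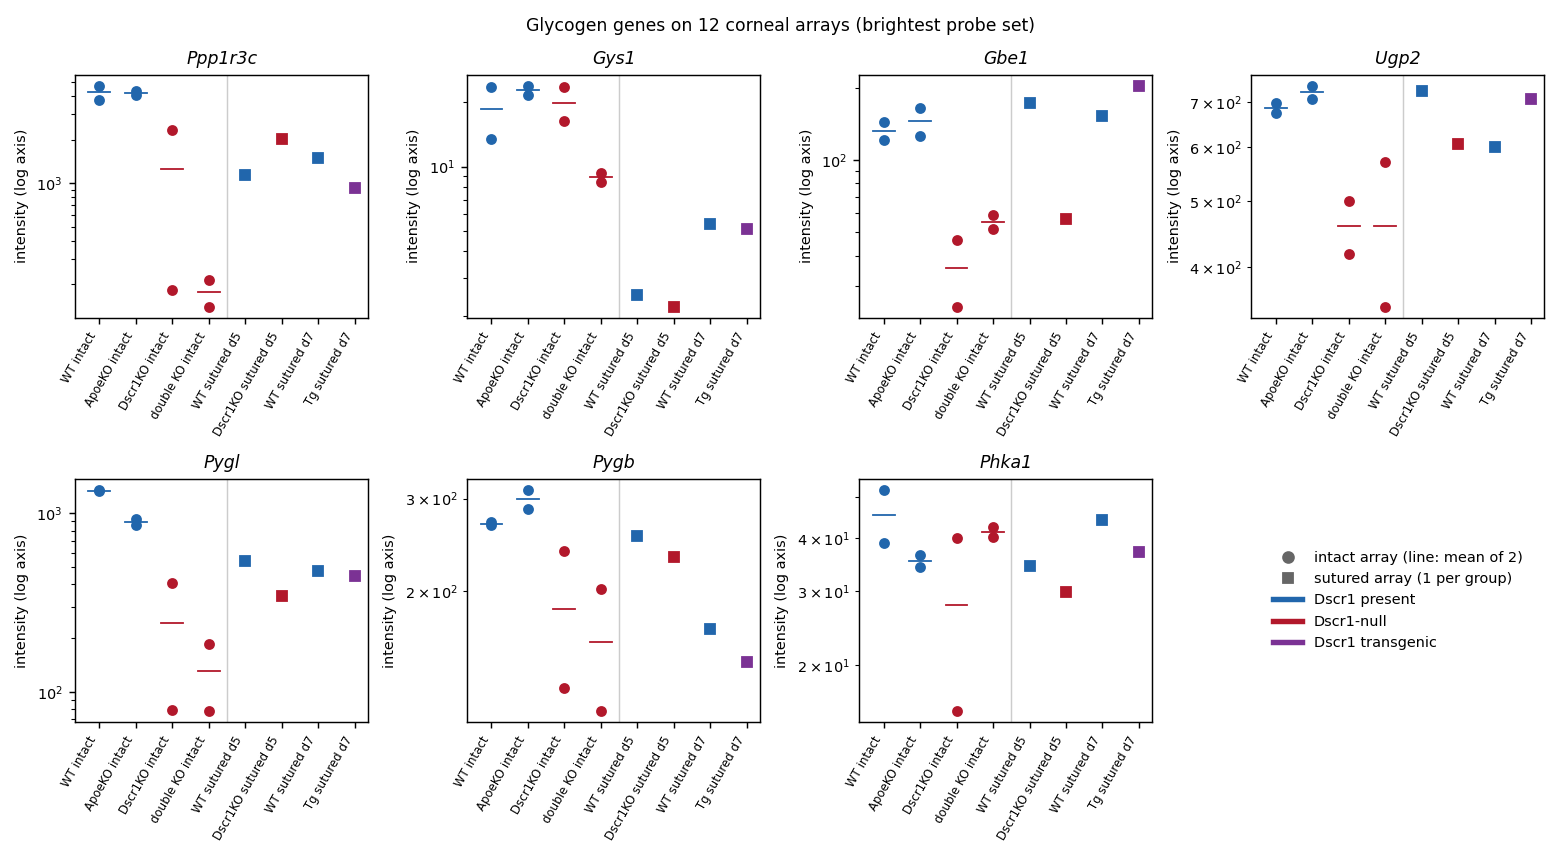
Intensity (log axis, a different range in each panel) of the 7 glycogen genes on each of the 12 arrays, by group. Circles are intact corneas with a line at the mean of 2, squares are single sutured arrays, and colour gives the Dscr1 genotype. Gbe1 and Pygl have all 5 Dscr1-null arrays below the 7 others, and Gys1 has all 4 sutured arrays below the 8 intact ones.

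Of the other 6 genes, 4 fell in the average of Dscr1 loss over both Apoe labels (Gbe1, Ugp2, Pygl and Pygb) and none rose. The test was limma with Benjamini-Hochberg adjustment over 12706 genes at 0.05. In this comparison 31.7% of all genes passed, and falls alone made up 15.4% of all genes, so a call is common here. The median of the 6 genes was -0.70, beside a median near 0 over all genes (-0.02). The 6 genes were chosen with earlier results of these data known. In the same comparison the 27 other glycogen genes tested had a median of 0.06. The same 4 genes had no overlap between the 4 Dscr1-null and the 4 other intact arrays, as did 17.8% of all genes in that direction.

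Gbe1, the branching enzyme, was lower on every Dscr1-null array, intact or sutured. It read 121.0 and 144.7 in WT and 125.8 and 165.3 in ApoeKO. Dscr1KO read 46.4 and 24.5, and double KO read 51.9 and 59.1. The intact arrays with and without Dscr1 did not overlap, and the widest gap between replicates was that of Dscr1KO. The difference was -1.59 ± 0.22 in the average (adjusted p = 0.00162), -1.86 ± 0.31 in Dscr1KO against WT (adjusted p = 0.00947), -1.33 ± 0.31 in double KO against ApoeKO (adjusted p = 0.0218) and -1.20 ± 0.31 in double KO against WT (adjusted p = 0.0291). The average stayed past the threshold with any single array left out and without both libraries of doubtful label (adjusted p = 0.00462). Calls of the smaller comparisons were lost without single arrays: in Dscr1KO against WT without WT replicate 1 (adjusted p = 0.0622) or 2 (0.0965), in double KO against ApoeKO without ApoeKO replicate 1 (0.0747) or 2 (0.16) or double KO replicate 1 (0.0916) or 2 (0.0533). In double KO against WT the call was lost without any 1 of the 6 arrays of WT, ApoeKO and double KO (0.0532 to 0.193).

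Ugp2, which makes the UDP-glucose that glycogen synthase uses, fell by a smaller amount. It read 675.2 and 698.3 in WT and 739.7 and 706.6 in ApoeKO. Dscr1KO read 501.4 and 418.3, and double KO read 350.0 and 571.1. The Dscr1-null arrays all lay lower, with a wide spread in double KO. The average was -0.63 ± 0.16 (adjusted p = 0.0221). None of the 3 single comparisons passed, at -0.58 in Dscr1KO against WT (adjusted p = 0.142), -0.69 in double KO against ApoeKO (0.0741) and -0.61 in double KO against WT (0.102). The average lost its call without WT replicate 1 (0.0716) or 2 (0.0843), ApoeKO replicate 1 (0.0799) or 2 (0.0727), or both libraries of doubtful label (0.127). Ugp2 has 5 probe sets, and the average lay between -0.98 and -0.55 in 4 of them, which passed when each probe set was tested by itself. The fifth, at -0.24 (adjusted p = 0.153), did not pass. Tested so, 1 of the 5 probe sets also passed in each single comparison, at -0.90 in Dscr1KO against WT (adjusted p = 0.0241), -1.07 in double KO against ApoeKO (0.00848) and -1.01 in double KO against WT (0.00932).

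Gys1, glycogen synthase, was dim and did not pass in any Dscr1 comparison. It read 13.5 and 23.7 in WT and 24.0 and 21.6 in ApoeKO. Dscr1KO read 23.6 and 16.3, and double KO read 9.3 and 8.5. Double KO corneas were the lowest intact ones, while Dscr1KO overlapped with WT. The difference was -1.08 ± 0.35 in double KO against ApoeKO (adjusted p = 0.069, 0.0414 after quantile normalization and 0.0404 without the intensity trend), 0.11 ± 0.35 in Dscr1KO against WT (0.872) and -0.49 ± 0.25 in the average (0.174). Its second probe set lay below the filter on dim genes.

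Of the enzymes of breakdown, Pygl, the liver-type phosphorylase, had the largest fall among the 6 tested genes. It read 1325.2 and 1350.6 in WT and 925.1 and 861.9 in ApoeKO. Dscr1KO read 404.9 and 78.6, and double KO read 77.9 and 183.9. As with Ppp1r3c, Dscr1KO replicate 1 was the highest of the 4 Dscr1-null intact corneas. The average was -2.87 ± 0.48 (adjusted p = 0.00379), with -2.87 ± 0.67 in Dscr1KO against WT (0.0336), -2.86 ± 0.67 in double KO against ApoeKO (0.0236) and -3.44 ± 0.67 in double KO against WT (0.0111). The average kept its call with any single array left out and without both libraries of doubtful label (0.00805). In Dscr1KO against WT the value was -1.72 without Dscr1KO replicate 2 (0.053), and the call was also lost without WT replicate 1 (0.158) or 2 (0.187) or ApoeKO replicate 1 (0.0646) or 2 (0.0651). In double KO against ApoeKO it was lost without WT replicate 1 (0.0502) or 2 (0.0505), ApoeKO replicate 1 (0.116) or 2 (0.117), or double KO replicate 1 (0.126). In double KO against WT it was lost without WT replicate 1 (0.0695) or 2 (0.08) or double KO replicate 1 (0.0708).

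Pygb, the brain-type phosphorylase, fell less than Pygl. It read 266.5 and 270.6 in WT and 311.6 and 286.0 in ApoeKO. Dscr1KO read 238.0 and 130.5, and double KO read 117.9 and 201.5. The Dscr1-null corneas lay below the others, each group with 1 high and 1 low array. The average was -0.77 ± 0.23 (adjusted p = 0.0376), and no single comparison passed (-0.60, -0.94 and -0.79, adjusted p = 0.265, 0.0811 and 0.13 in the order used above). The average lost its call without WT replicate 1 (0.105) or 2 (0.115), ApoeKO replicate 1 (0.114) or 2 (0.0976), Dscr1KO replicate 2 (0.0653), double KO replicate 1 (0.0963) or both libraries of doubtful label (0.173).

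Phka1, the phosphorylase kinase subunit encoded on the X chromosome, did not pass in any comparison. It read 52.0 and 38.9 in WT and 36.5 and 34.1 in ApoeKO. Dscr1KO read 40.1 and 15.6, and double KO read 42.6 and 40.2. The 15.6 of Dscr1KO replicate 2 stands below the 11 other arrays, which lay between 29.9 and 52.0. The average was -0.27 ± 0.28 (adjusted p = 0.494), -0.56 without Dscr1KO replicate 1 (0.0484) and 0.03 without Dscr1KO replicate 2. None of its 3 probe sets passed in the average.

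Taken by comparison, 2 of the 6 genes (Gbe1 and Pygl) fell in Dscr1KO against WT, where 11.8% of all genes passed and 3.9% fell. The same 2 fell in double KO against ApoeKO (19.6% of all genes passed and 8.61% fell) and in double KO against WT (20.1% passed and 8.74% fell). The first and the last comparison share the WT arrays, and the last 2 share the double KO arrays. Without both libraries of doubtful label, 2 genes passed in the average and 1 in Dscr1KO against WT. Xist divides WT from Dscr1KO completely. With a term for Xist in the fit, 3 genes passed in the average (26.3% of all genes passed) and 0 in Dscr1KO against WT (3.08%). Replicates differed in Xist only in double KO, so that term rests on replicate 1 against replicate 2 of double KO. The same pair also differed in the sum of photoreceptor genes (3825.9 and 48.6), so the term cannot decide what goes with Xist. Among the 5 intact arrays with Xist, 3 without and 2 with Dscr1, only Gbe1 passed (adjusted p = 0.0419), beside 5.38% of all genes.

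**Figure D2:**
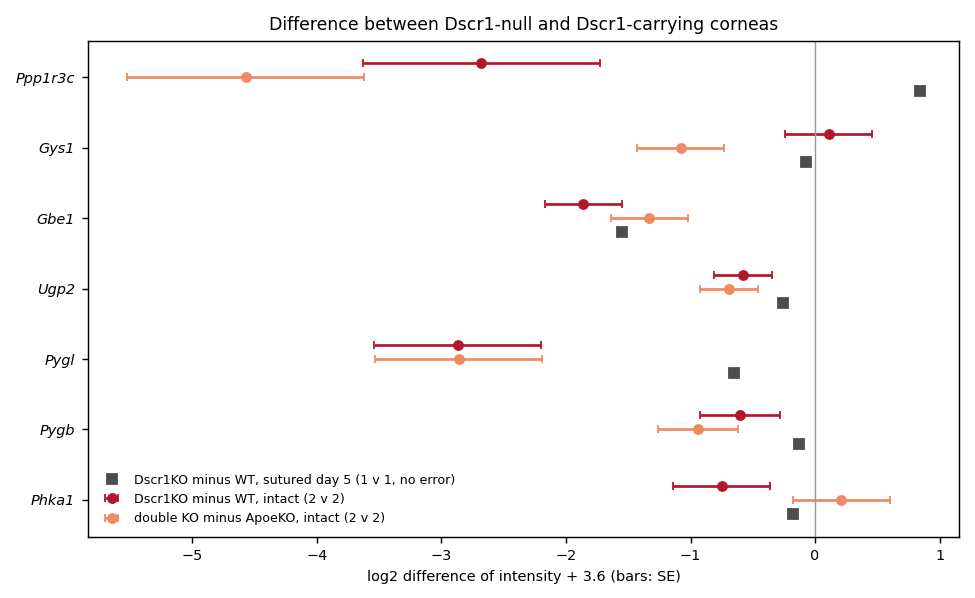
Differences on the scale of log2(intensity + 3.6) for the 7 genes: Dscr1KO minus WT and double KO minus ApoeKO in intact corneas (circles, bars are SE, 2 against 2 arrays) and Dscr1KO minus WT on day 5 after suturing (squares, single arrays without error). Gbe1 lay at -1.86, -1.33 and -1.55, whereas Ppp1r3c lay at -2.68 and -4.57 in intact corneas and at 0.84 in sutured ones.

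None of the 6 tested genes passed the threshold in the comparisons by Apoe label. These comparisons use both libraries of doubtful label. ApoeKO replicate 1 read Apoe at 849.3, between the WT values of 776.5 and 1030.5, and Dscr1KO replicate 2 has an ApoE-/- source label. Without them ApoeKO and Dscr1KO keep a single array each, so whether Apoe loss changes these genes cannot be decided. ApoeKO against WT called 0 of 6, beside 0.0236% of all genes, with 477 genes at an unadjusted p under 0.05. Ppp1r3c differed by -0.02 ± 0.95. Pygl differed by -0.58 ± 0.67 (adjusted p = 1.0), and its 2 ApoeKO values lay below both WT values. With these 4 arrays fitted alone, whose replicates are the closer ones, the adjusted p of Pygl was 0.0299. With the term for Xist, which rests on the double KO replicates alone, the difference of Pygl was 0.62.

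Within Dscr1-null corneas, double KO against Dscr1KO also called 0 of 6 (0.0236% of all genes, 1365 genes at an unadjusted p under 0.05). Gys1 differed by -0.90 ± 0.35 (adjusted p = 0.46) and Ppp1r3c by -1.91 ± 0.95. The value of Ppp1r3c depends on the 2 unlike Dscr1KO arrays: it was -0.08 without replicate 1 and -3.73 without replicate 2. The average of Apoe loss called 0 of 6 (0.0157% of all genes, 758 at an unadjusted p under 0.05). Ppp1r3c was at -0.96 ± 0.67 in that average, or -0.05 and -1.87 without the same arrays. For the interaction of Dscr1 and Apoe, 0 of 6 passed (0.00787% of all genes, 962 at an unadjusted p under 0.05). Gys1 had an interaction of -1.18 ± 0.50 (adjusted p = 0.653) and Ppp1r3c one of -1.89 ± 1.34, or -0.07 and -3.71 without the same arrays.

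Suturing was compared over 7 arrays of WT and Dscr1KO corneas with the Dscr1 genotype as a term. Among these arrays Xist was high only in intact Dscr1KO, so sutured and intact Dscr1KO corneas also differ in Xist. None of the 6 tested genes passed, nor did any of the 12706 genes (0%), while 1251 genes had an unadjusted p under 0.05. By limma, 595 genes passed with the WT arrays alone, 136 without the sutured Dscr1KO array and 27 with a term for suturing by genotype. That term itself passed in 0.606% of all genes (1782 had an unadjusted p under 0.05) and in 0 of the 6. Gys1 differed by -1.73 ± 0.31. It reached the filter on dim genes, a mean intensity of 9.51, only through the intact arrays, so its values here are a description. It read 2.5 and 5.4 in sutured WT, 5.1 in Tg and 2.2 in Dscr1KO. All 4 sutured arrays lay below the 8 intact ones (8.5 to 24.0), as did 1.57% of all genes, in a count made after the values were seen. These levels lie near the added constant of 3.6, so the size depends on it. The second Gys1 probe set, below the filter, differed by -0.12, with 11.2 in sutured WT and 9.6 in Tg on day 7 above all 8 intact arrays (0.9 to 7.1), and 0.5 in sutured WT and 1.0 in Dscr1KO on day 5. Gbe1 differed by 0.45 ± 0.24 (0.563), Pygl by -0.47 ± 0.66 (0.835), Ugp2 by 0.13 ± 0.16 (0.809), Pygb by -0.06 ± 0.28 (0.958) and Phka1 by -0.03 ± 0.33 (0.988), and Ppp1r3c by -0.37 as a description.

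On day 5 after suturing, the single Dscr1KO array can be set beside the single WT array, with no replicate check. Gbe1 read 57.0 against 173.8, a log2 difference of -1.55, and it was the only 1 of the 7 genes with at least a 2-fold difference (1.93% of all genes were lower by that much and 4.17% higher). Pygl read 342.3 against 538.1 (-0.65) and Ppp1r3c read 2020.5 against 1130.4 (0.84). Ugp2 (-0.26), Phka1 (-0.18), Pygb (-0.13) and Gys1 (-0.07) lay closer together.

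Counting all 5 Dscr1-null arrays, intact and sutured, against the 7 others, Gbe1 and Pygl were lower without Dscr1 on every array, 2 of 7 genes beside 2.35% of all genes. This count was made after the values were seen. Gbe1 lay at 24.5 to 59.1 against 121.0 to 204.6, a clear gap. Pygl lay at 77.9 to 404.9 against 443.1 to 1350.6, and the edges of its groups are close. Gbe1 (chr16:70313949-70569720, GRCm38.p6) and Rcan1 (chr16:92391951-92466169) are on the same chromosome, where 9 of 412 tested genes, or 2.18%, were lower on all 5 arrays.

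In the Tg cornea on day 7, none of the 7 genes differed from WT by 2-fold, beside 3.53% of all genes lower and 0.756% higher. Rcan1 itself read 548.3 in Tg against 579.7 in WT, and 66.7 against 53.4 on a dimmer probe set. The brighter probe set thus showed no excess of Rcan1 RNA in Tg, while the dimmer one had its highest value of the 12 arrays there. Nothing here shows whether these probe sets read the transcript of the transgene. Ppp1r3c read 930.0 against 1491.5 (-0.68) and Gbe1 204.6 against 152.1 (0.42), the highest Gbe1 value of the 12 arrays. The dimmer Ppp1r3c probe set went the other way, at 26.8 in Tg against 19.6 in WT. The others were Ugp2 (0.23), Gys1 (-0.05), Pygl (-0.09), Pygb (-0.21) and Phka1 (-0.24). Between days 7 and 5 in sutured WT no gene of the 7 differed by 2-fold either on the scale of log2(intensity + 3.6), beside 3.32% of all genes higher and 2% lower. Gys1 (0.56, from 2.5 on day 5 to 5.4 on day 7) and Pygb (-0.58) were the farthest apart, with Ppp1r3c at 0.40, Phka1 at 0.33, Gbe1 at -0.19, Pygl at -0.19 and Ugp2 at -0.27.

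The rest of the pathway did not move as 1 block. Of 35 other genes of glycogen metabolism, 33 are on the array and 27 were bright enough to test. In the average of Dscr1 loss 4 rose and 7 fell, with a median of 0.06, where 16.3% of all genes rose and 15.4% fell. In synthesis, 1 of 6 tested genes fell (Gyg, the glycogenin that primes new granules) and 3 rose (the hexokinases Hk1 and Hk2, and Pgm2, a phosphoglucomutase). Gyg read 3740.4 and 4135.9 in WT and 3916.0 to 4254.6 in ApoeKO. Dscr1KO read 990.7 and 2297.6, and double KO read 808.6 and 864.2. It fell by 1.83 ± 0.24 (adjusted p = 0.00135), in all 3 single Dscr1 comparisons, and with any single array left out. In the sutured Dscr1KO cornea, at 3433.3, it was as high as in sutured WT (3103.9 and 2847.9). Hk2 read 188.7 to 280.0 in intact corneas with Dscr1 and 562.9 to 1125.7 in those without, a rise of 1.87 (0.000894). It also read 925.7 in sutured WT on day 5 but 187.8 on day 7. Hk1 rose by 0.93 (0.00459) and Pgm2 by 0.71 (0.00636).

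In breakdown, 1 of 5 tested genes fell and none rose. Phkb, the beta subunit of phosphorylase kinase, fell by 1.07 (0.0172), from 394.7 to 424.3 in corneas with Dscr1 to 127.4 to 314.6 in those without. Of 16 regulators tested, 5 fell and 1 rose. Prkaa2, a catalytic subunit of the energy sensor AMPK, fell by 1.05 (0.00458), and the AMPK subunits Prkab1 and Prkag2 fell by 0.54 (0.0157) and 0.93 (0.0425). Ppp1r3e, another glycogen-targeting subunit of protein phosphatase 1, fell in the average (adjusted p = 0.00678), but only in Dscr1KO were its values low, at 11.8 and 14.3 against 46.2 to 68.6 on the other 6 intact arrays. The other targeting subunits tested, Ppp1r3b, Ppp1r3d and Ppp1r3f, did not pass. Ppp1cc, a catalytic subunit of the phosphatase, rose by 0.47 (0.0279), while another of its probe sets lay at -0.09. Phkb, Prkab1, Prkag2 and Ppp1cc each lost the call without WT replicate 1 or 2 or ApoeKO replicate 1 or 2 (adjusted p between 0.0517 and 0.147). Phkb, Prkag2 and Ppp1cc lost it without double KO replicate 1 as well, and Prkag2 without double KO replicate 2 (0.0559 to 0.105). Ppp1r3e, Prkab1, Prkag2 and Ppp1cc also lost it without both libraries of doubtful label (0.0545 to 0.117). In single comparisons, 3 rose and 3 fell in Dscr1KO against WT, where rises made up 7.86% of all genes. In double KO against ApoeKO 2 rose and 3 fell (11% of all genes rose), and in double KO against WT 4 rose and 2 fell (11.4% rose). None of the 27 passed in the Apoe comparisons or with suturing.

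**Figure D3:**
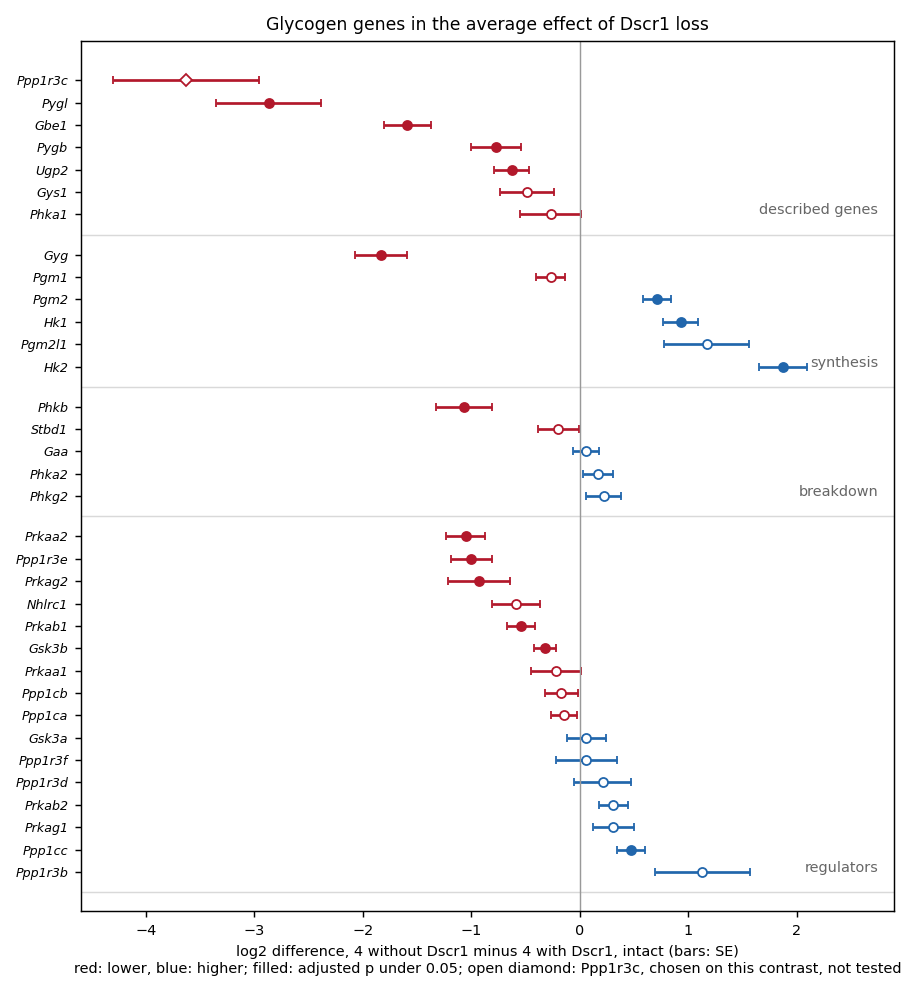
Log2 difference (bars are SE) between 4 intact corneas without and 4 with Dscr1 for the 7 genes and the 27 other glycogen genes tested, grouped by role. Filled points passed at an adjusted p under 0.05, and the open diamond is Ppp1r3c, which is not tested here. Pygl at -2.87 and Gyg at -1.83 lie farthest below 0 among the tested genes and Hk2 at 1.87 farthest above.

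Genes next to glycogen in metabolism were read from further lists. Of 12 glycolysis genes, 3 rose in the average of Dscr1 loss, Pkm by 0.93, Pfkp by 0.85 and Pgk1 by 0.71, and Pfkm fell by 0.70. Of the same 12, 6 rose and 1 fell in double KO against WT, with a median of 0.72 against 0.25 in the average. Of 15 hypoxia-induced genes, 1 rose, Ero1a by 0.81, and 5 fell, led by Car9 at -1.93 and Egln3 at -1.42. Over all genes 16.3% rose and 15.4% fell in the average, and 11.4% rose and 8.74% fell in double KO against WT. Car9, a carbonic anhydrase, read 61.6 to 127.9 with Dscr1 and 13.7 to 31.2 without. Pdk1, a kinase that limits glucose oxidation, fell by 1.03. These hypoxia-induced genes and Pkm kept their calls with any single array left out. Pfkp and Pgk1 lost theirs without WT replicate 2 (adjusted p = 0.0835 and 0.0709) or ApoeKO replicate 2 (0.0739 and 0.0709), Pfkp also without ApoeKO replicate 1 (0.0596), and Pfkm without any of the WT and ApoeKO arrays (0.0581 to 0.0725).

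Markers of several cell types moved with the Dscr1 genotype. Rises and falls here are calls in the average of Dscr1 loss, where 16.3% of all genes rose and 15.4% fell. The summed intensity of 12 genes of keratinised epithelium was 2215.0 to 2768.3 on intact arrays with Dscr1, 16847.9 to 29568.8 on those without and 1764.7 to 2400.3 on sutured arrays; 10 of the 12 rose and 2 fell. Sums of 8 corneal endothelium genes were 10158.7 to 13153.2, 1510.2 to 7941.5 and 8169.0 to 12661.3, and 5 of the 8 fell. Sums of 9 neutrophil genes were 246.8 to 404.4, 10755.7 to 20483.8 and 1525.8 to 11294.6, and all 9 rose. Sums of 9 conjunctiva and goblet cell genes were 6467.9 to 9160.3, 18233.7 to 24138.9 and 10724.5 to 15486.3, and 5 of the 9 rose and 1 fell. Sums of 10 lens genes were 1577.9 to 10100.5, 505.0 to 1213.0 and 1444.1 to 8121.9, and 8 of the 10 fell. Within the first range WT read 10100.5 and 7680.3, while ApoeKO read 2022.2 and 1577.9. The median of the lens genes was -3.32 in ApoeKO against WT and -1.76 in the average of Dscr1 loss. Lens genes thus did not move with the Dscr1 genotype alone. Macrophage genes (9 of 10 rose) and blood endothelium genes (9 of 10 rose) were higher as well. Corneal epithelium genes overlapped between groups (43731.0 to 61003.7 with Dscr1, 38738.8 to 56779.8 without), with 1 of 10 rising and 3 falling. Sums of 10 keratocyte genes overlapped too (19026.4 to 28239.2 with Dscr1, 19522.2 to 22864.5 without), with 2 of 10 rising and 2 falling. Genes of skeletal muscle, a tissue rich in glycogen, summed to at most 127.9 over 12 genes on any array. Double KO replicate 1 stood apart with a sum of photoreceptor genes of 3825.9, against at most 298.6 on the 11 other arrays. It also had the lowest Ppp1r3c, Pygl, Pygb and Ugp2 of the 12 arrays. No marker of these lists read 0 on any array.

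Ppp1r3c can be set beside the first 2 of these lists array by array. Dscr1KO replicate 1, the Dscr1-null intact cornea with the highest Ppp1r3c, had the lowest keratinised sum of the 4 (16847.9 against 27433.7 to 29568.8) and the highest corneal endothelium sum (7941.5 against 1510.2 to 6155.0). The sutured Dscr1KO cornea, with Ppp1r3c at 2020.5, had sums of 1837.1 and 12661.3, outside the ranges of the intact Dscr1-null corneas. The 3 other sutured corneas had keratinised sums of 1764.7 to 2400.3, near those of intact corneas with Dscr1, but a lower Ppp1r3c (930.0 to 1491.5 against 3780.1 to 4731.1). Among the 3 arrays with the lowest Ppp1r3c, its order (139.1, 183.0, 213.7) was that of the keratinised sums (27433.7, 28059.5, 29568.8). Sutured WT on day 5 had an endothelium sum of 10283.2, close to the 10158.7 of ApoeKO replicate 1, with Ppp1r3c at 1130.4 against 4045.1. Gbe1 was low in the sutured Dscr1KO cornea. The part of these cell types in the changes of the glycogen genes was not tested.

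**Figure D4:**
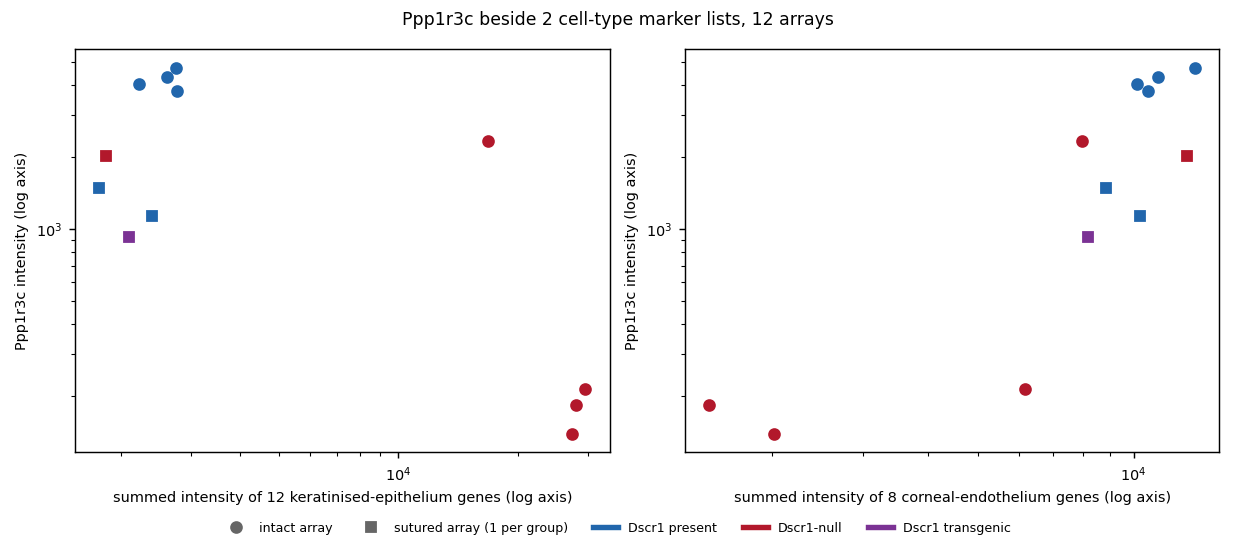
Ppp1r3c intensity on each of the 12 arrays against the summed intensity of 12 keratinised epithelium genes (left) and 8 corneal endothelium genes (right), all on log axes. Circles are intact and squares sutured arrays, coloured by Dscr1 genotype. The 3 arrays with the lowest Ppp1r3c (139.1 to 213.7) have keratinised sums from 27433.7 upwards, and the 8 arrays that are sutured or carry Dscr1 have sums of 2768.3 or less.

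The likeness of other genes to Ppp1r3c was described by Pearson's r of log2 values, over points that share the arrays and the genotype groups. Over 12 arrays the 8 genes with the highest r were Cd82, a tetraspanin (0.98), Slc37a1, a sugar phosphate exchanger (0.98), 2900026A02Rik (0.98), Art4 (0.98), 1600014C10Rik (0.98), Cyp4a12a, a fatty acid hydroxylase (0.98), Svip (0.97) and AA986860 (0.97). Over the 8 intact arrays their r was 0.98 or more. Pygl had an r of 0.94 with Ppp1r3c over 12 arrays and was number 144 of all genes in that order, and Pygb had 0.84. Ugp2 had 0.76, Gbe1 0.59, Phka1 0.37 and Gys1 0.29. Over the 8 intact arrays Pygl had 0.96, Pygb 0.92, Ugp2 0.84, Gbe1 0.80, Gys1 0.75 and Phka1 0.40. Pygb and Ugp2 were the closest pair of the 7 genes within intact corneas other than Ppp1r3c and Pygl, with 0.95.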

How the data were processed

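The deposited values are linear probe-set intensities, brought by the authors to a trimmed mean of 100 per array, as read from the values. The sources used here do not name the software. RNA was labelled as biotinylated cRNA from 100 ng of total RNA, per the labels' protocols. Symbols came from the platform table: of 45101 probe sets, 34958 carry 1 symbol, 932 several and 9211 none. Genes were tested on log2(intensity + 3.6), 3.6 being the 20th percentile of all values, if their mean reached the 40th percentile of probe-set means, and 12706 did. All 7 genes passed. The 8 intact arrays entered 1 model by genotype with an intensity trend (limma 3.58.1, R 4.3.3), and p-values were Benjamini-Hochberg adjusted, with a threshold of 0.05. Single arrays were subtracted without a test. P-values weigh the spread between these samples.

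On simulated data of 12706 genes, 200 genes were shifted. The fit of the average of Dscr1 loss recovered 10% of those shifted by 0.5 on the log2 scale. It recovered 74% at a shift of 1, 98% at 2 and 100% at 4, with 7.24% of its calls false. In the real data 31.7% of genes passed in this comparison, a far larger share, so these rates need not hold there. Replicate numbers did not pair the samples (deviations correlated at -0.05 to 0.07). The 7 genes and all lists were chosen with earlier results of these data known. Other glycogen genes were named by lowest adjusted p, at most 10 in the average, neighbouring lists by their largest changes, at most 4, and likeness by the 8 highest r. Alternatives changed the filter, scaling, constant, trend, arrays and probe sets. Plots used matplotlib 3.10.9 (python 3.11.15).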

Additional observations from a re-analysis of the deposited data

Results flagged for a closer look

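Ppp1r3c went opposite ways in the comparison of Dscr1KO with WT: both intact Dscr1KO corneas read below both WT corneas (-2.68 on the log2 scale), while on day 5 after suturing the Dscr1KO array read above the WT array by 0.84. That difference was not tested for Ppp1r3c. Xist read 4104.0 and 5385.2 in intact Dscr1KO against 14.9 and 8.9 in intact WT. On day 5 after suturing it read 6.0 in Dscr1KO and 9.6 in WT. The intact and the sutured comparison thus also differ in Xist, and the 2 differences cannot be told apart.

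Genes of the same or neighbouring pathways also had opposite signs in the intact and the sutured comparison of Dscr1KO with WT. Both intact Dscr1KO arrays lay on the same side of both intact WT arrays, and the day 5 pair had the other sign. The genes listed here were picked for this opposite sign among genes already named above. How many of all genes meet the same rule was not counted, so their number says nothing about the pathway. Some day 5 differences, such as those of Phkb and Gyg, are small. After suturing, the log2 difference of Dscr1KO from WT was 0.15 for Gyg, 0.35 for Prkaa2, 0.23 for Ppp1r3e, 0.06 for Phkb, 0.29 for Prkag2 and 0.50 for Pfkm, all lower in intact Dscr1KO. It was -1.43 for Hk2, -0.76 for Pgm2, -1.14 for Pkm, -1.13 for Pfkp, -0.87 for Pgk1 and -1.41 for Ero1a, all higher in intact Dscr1KO. In a fit of 7 arrays with a term for suturing by Dscr1 genotype, none of these 12 genes passed by limma (adjusted p from 0.0985 for Ppp1r3e to 0.445 for Phkb), beside 0.606% of all genes. The sutured pair is 1 array against 1, and Xist was low on both, unlike in the intact comparison.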

How the results depend on the processing

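Of the 6 glycogen genes tested beside Ppp1r3c, the number past the threshold was 4 in the average of Dscr1 loss and ranged from 2 to 5 with single arrays left out; it was 2 without both libraries of doubtful label and 1 among the 5 intact arrays with Xist. In Dscr1KO against WT the number was 2, with a range of 0 to 4, and was 1 without the intensity trend, with only these groups fitted or without both doubtful libraries, and 0 with a term for Xist. In double KO against ApoeKO it was 2, with a range of 0 to 3, and in double KO against WT 2, with a range of 0 to 3, and 0 with the term for Xist. With only the groups compared, 1 gene (Pygl) passed in ApoeKO against WT, and 1 gene passed for suturing with the WT arrays alone (Gys1, which reached the filter on dim genes only through intact arrays); both numbers were otherwise 0. The replicate block left 3 genes in the average, where Pygb (adjusted p = 0.0543) dropped out. The term for Xist rests on the double KO replicates alone. The cause of these changes was not tested, beyond the fewer arrays in a fit.

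These differences changed sign. For Gys1 in Dscr1KO against WT they were -0.06 after quantile normalization, -0.23 without WT replicate 1 and -0.12 without Dscr1KO replicate 1. In the same comparison the term for Xist, set by the double KO replicates, gave 0.16 for Pygb and 0.12 for Ugp2. Phka1 was 0.08 in double KO against WT without WT replicate 1, and in the average 0.03 without Dscr1KO replicate 2 and 0.05 without both doubtful libraries. In ApoeKO against WT, Ppp1r3c was 0.14 without WT replicate 1, 0.03 without ApoeKO replicate 1, 0.03 without both doubtful libraries and 0.59 with the term for Xist, and Pygl was 0.62 with that term. Another Ppp1cc probe set was at -0.09 in the average. Gys1 on day 7 against day 5 was 0.95 with the constant at the 5th percentile. Calls over all genes in the average numbered 4023, with a range of 2168 to 5683, and were 2596 without both doubtful libraries and 683 among the arrays with Xist. In Dscr1KO against WT they numbered 1495, range 265 to 3863, with 753 when only these groups were fitted, 703 without both doubtful libraries and 391 with the term for Xist. In double KO against ApoeKO they numbered 2493, range 520 to 3936, and in double KO against WT 2555, range 700 to 3974, with 1577 under the term for Xist. With single arrays left out, Gys1 in Dscr1KO against WT ranged from -0.23 to 0.44, Phka1 from -0.31 to 0.08 in double KO against WT and from -0.56 to 0.03 in the average, and Ppp1r3c from -0.18 to 0.14 in ApoeKO against WT. The Apoe comparisons had 3 or fewer calls over all genes and up to 203 under other settings.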
